A study of Mus musculus with 4 samples.

Results

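The circadian clock genes were followed in the livers of mice lacking the Cyp3a cluster and of wild type mice. They comprised 10 genes: Arntl (also called Bmal1), Clock, Npas2, Per1, Per2, Per3, Cry1, Nr1d1, Nr1d2 and Dbp. Members were all array probes whose RefSeq accession names 1 of these genes, which gave 11 of 39429 probes, 2 for Dbp and 1 for each other gene. Total RNA of 2 Cyp3a-/- livers and 2 wild type livers was labelled with Cy3, and each liver had its own 1-colour Agilent array. Cyp3a genes encode cytochrome P450 enzymes that oxidise drugs and steroids, and the genotypes differ in the knockout of that cluster. The labels speak of independent experiments on different animals. Strain, sex, age, feeding and the hour at which each liver was taken are not given in the sources used here.

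The clock of a mouse liver cell is a loop of transcription. ARNTL pairs with CLOCK or NPAS2 and binds E-boxes to switch on the Per, Cry, Nr1d and Dbp genes, and the PER and CRY proteins then block that pair. NR1D1 and NR1D2 (REV-ERB alpha and beta) repress Arntl, Clock, Npas2 and Cry1, so these transcripts run opposite in phase to Dbp and Nr1d1, while DBP and its relatives drive genes that carry D-boxes. In liver the rhythm also follows feeding and glucocorticoids, and the transcript levels of most members depend on the hour of sampling.

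Promoter windows of 9 of the 10 members, 13 windows in all, were found in RefSeq (GRCm38.p6), and those with a clock motif are printed with that of Dbp, the member that varied most, to show the letters that were searched for these motifs. Each runs from 250 bases before the annotated start to that start, 5′ to 3′ on the strand of the gene, and capitals mark a match on either strand to the E-box CACGTG, the variant E-box CACGTT or the D-box TTATGTAA.
Dbp, chr7:45704997-45705246, plus strand: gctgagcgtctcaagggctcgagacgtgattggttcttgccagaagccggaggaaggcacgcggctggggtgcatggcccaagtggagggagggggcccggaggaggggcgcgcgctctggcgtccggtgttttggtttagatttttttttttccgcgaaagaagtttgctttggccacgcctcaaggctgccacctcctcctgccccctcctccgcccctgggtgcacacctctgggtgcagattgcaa
Per1, chr11:69098699-69098948, plus strand: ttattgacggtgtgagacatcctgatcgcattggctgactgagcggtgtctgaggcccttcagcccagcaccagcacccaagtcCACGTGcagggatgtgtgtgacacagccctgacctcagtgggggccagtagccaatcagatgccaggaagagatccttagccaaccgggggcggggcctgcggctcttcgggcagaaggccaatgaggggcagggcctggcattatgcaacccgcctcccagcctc
Nr1d1, chr11:98775378-98775627, minus strand: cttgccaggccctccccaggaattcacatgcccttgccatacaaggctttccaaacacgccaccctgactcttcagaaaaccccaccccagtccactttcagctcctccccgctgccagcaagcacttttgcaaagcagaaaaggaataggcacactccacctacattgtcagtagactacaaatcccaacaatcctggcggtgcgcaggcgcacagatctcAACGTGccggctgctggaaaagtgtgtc
Cry1, chr10:85185055-85185304, minus strand: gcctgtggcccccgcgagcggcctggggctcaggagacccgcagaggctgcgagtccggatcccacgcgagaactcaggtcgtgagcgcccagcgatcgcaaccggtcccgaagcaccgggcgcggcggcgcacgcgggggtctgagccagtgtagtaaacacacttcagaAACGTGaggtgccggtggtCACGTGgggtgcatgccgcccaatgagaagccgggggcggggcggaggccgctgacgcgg
Per3, chr4:151044666-151044915, minus strand: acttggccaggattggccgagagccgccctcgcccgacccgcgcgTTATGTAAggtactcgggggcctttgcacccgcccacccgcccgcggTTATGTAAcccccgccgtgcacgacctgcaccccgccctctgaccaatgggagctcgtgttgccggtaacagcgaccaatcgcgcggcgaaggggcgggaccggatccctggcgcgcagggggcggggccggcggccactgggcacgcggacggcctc
Counted from the start site, Per1 held an E-box at -166, and Cry1 held an E-box at -60 and a variant at -79. Nr1d1 held a variant E-box at -28, and Per3 held 2 D-boxes, at -205 and -158. Arntl, Clock, Npas2 and Nr1d2 held none of these in their windows, nor did Dbp. Of 32851 mouse promoter windows of the same length, 6.02% held CACGTG, 3.85% CACGTT and 0.819% TTATGTAA on either strand, and the letters TAGGTCA, the core of the element bound by NR1D1, stood in 2.23% and in no member window. A match describes the letters and not the binding of a factor. Bases after the start site and enhancers outside the window were not searched. A window without a match thus does not show that the gene lacks the element.

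Values are given as relative intensity, the processed probe signal divided by the array's own 75th percentile, so that 1 marks a probe as bright as that percentile. They compare livers for 1 probe and not 1 probe with another. The scanner software flags spots well above background, and 54.4% to 56.4% of the probes of an array had that flag, while 0 spots were saturated. Cyp3a11, the main Cyp3a transcript of mouse liver, had processed intensities of 2.48 and 2.53 in the Cyp3a-/- livers, not well above background, against 76423 and 95872 in the wild type livers for its brighter probe. All 6 hepatocyte markers were measured, with summed relative intensities of 1463 and 1557 in the Cyp3a-/- livers and 1514 and 1340 in the wild type livers. Both wild type arrays lay on 1 slide and each Cyp3a-/- array on a slide of its own, so slide and genotype cannot be told apart. In whole liver, fewer cells of a type and less RNA per cell cannot be told apart.

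No clock gene passed the test between the genotypes. Of the 10 members, 7 had that flag in both livers of 1 or both genotypes and entered the fit. After Benjamini-Hochberg adjustment over all 17406 features, limma called 0 of the 7, beside 0.276% of all features. It called 0 higher, beside 0.178%, and 0 lower, beside 0.0977%. At an unadjusted p under 0.05, 0 members were higher, beside 4.60% of all features, and 1, Nr1d1, was lower, beside 5.42%. The livers of the genotypes did not overlap for 4 of the 7, beside 42.8% of all features, and both wild type livers lay between the Cyp3a-/- livers for 1 of the 7, Dbp, beside 16.7%. The median log2 fold change (Cyp3a-/- minus wild type) was 0.12 over the 7 members and 0.01 over all features. The pair of Cyp3a-/- livers varied more than the wild type pair. For 7 of 7 members tested they lay farther apart than the wild type livers did, which held for 56.6% of all features. The median gap of a member (absolute log2 difference) was 0.71 between the Cyp3a-/- livers, against 0.25 over all features. Between the wild type livers it was 0.36, against 0.20. The wild type arrays shared 1 slide and the Cyp3a-/- arrays did not, so a wider gap between livers and a gap between slides cannot be told apart.

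**Figure D1:**
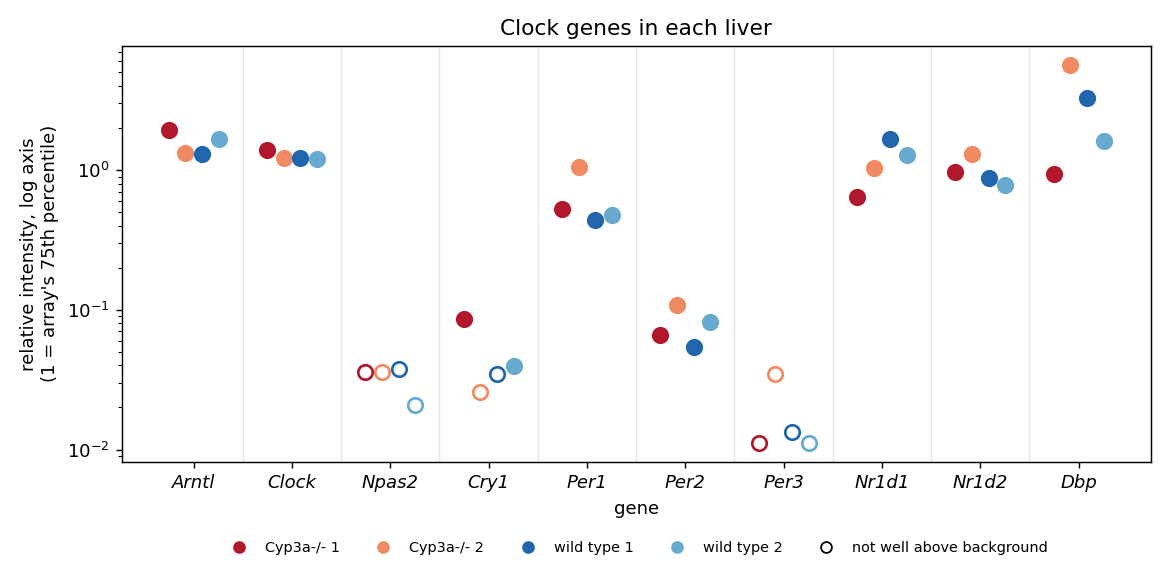
Relative intensity of each clock gene (log axis, 1 = the array's 75th percentile) in the Cyp3a-/- livers (red and orange) and the wild type livers (dark and light blue), 1 point per liver, open where the probe was not well above background. Dbp spans 0.934 to 5.67 within the Cyp3a-/- livers, a wider range than any other filled set of points.

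Dbp, a D-box activator that is among the strongest cycling outputs of the liver clock, gave the widest spread. Its relative intensity was 0.934 in Cyp3a-/- 1 and 5.67 in Cyp3a-/- 2, against 3.29 in wild type 1 and 1.62 in wild type 2. The Cyp3a-/- livers were the lowest and the highest of the 4. The genotype means were nearly the same, 1.20 ± 1.84 in Cyp3a-/- and 1.21 ± 0.72 in wild type (log2 relative intensity, SD, n = 2 each), and the log2 fold change was -0.01 ± 0.86 (SE; limma adjusted p = 0.999). Cyp3a-/- 2 exceeded Cyp3a-/- 1 by 6.07-fold, and 0.0862% of all features differed by more between these livers. Wild type 1 exceeded wild type 2 by 2.02-fold, a gap that 2.03% of features surpassed. The second Dbp probe gave the same order of livers, at 0.762 and 4.44 in the Cyp3a-/- livers and 2.37 and 1.18 in the wild type livers.

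The E-box genes of the Per family were highest in Cyp3a-/- 2. Per1, a repressor of the loop that also responds to glucocorticoids, stood at 0.525 and 1.05 in the Cyp3a-/- livers, against 0.439 and 0.477 in the wild type livers. Both Cyp3a-/- livers lay above both wild type livers, but Cyp3a-/- 1 was closer to wild type than to Cyp3a-/- 2. The log2 fold change of Per1 was 0.70 ± 0.35 (SE; limma adjusted p = 0.584), with 1.99-fold between the Cyp3a-/- livers. Without Cyp3a-/- 2 it was 0.20. Per2, its partner repressor, stood at 0.0660 and 0.109 in the Cyp3a-/- livers, against 0.0538 and 0.0819 in the wild type livers, which overlap (log2 fold change 0.35 ± 0.33, limma adjusted p = 0.747). It was the faintest member tested, with processed intensities from 16.8 to 33.6. With normexp background correction the log2 fold change of Per2 was 0.12. Per3, whose promoter holds the D-boxes printed above, had no liver above background. Its signal was 0.0112 and 0.0348 in the Cyp3a-/- livers and 0.0133 and 0.0112 in the wild type livers, so no fold is given.

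Nr1d1 was the member with the lowest p. Nr1d1, a heme-binding repressor of Arntl, stood at 0.638 and 1.04 in the Cyp3a-/- livers, against 1.67 and 1.28 in the wild type livers. Both Cyp3a-/- livers were below both wild type livers, Cyp3a-/- 1 the more so. The log2 fold change was -0.84 ± 0.30 (SE), or 0.558 of the wild type level, and it did not pass (unadjusted p = 0.0321 and adjusted p = 0.453, limma). Its paralog Nr1d2 lay on the other side, at 0.965 and 1.29 in the Cyp3a-/- livers and 0.883 and 0.782 in the wild type livers. The log2 fold change of Nr1d2 was 0.43 ± 0.22 (limma adjusted p = 0.586). As for Dbp, Per1 and Per2, Cyp3a-/- 2 was above Cyp3a-/- 1 for both paralogs, by 1.63-fold for Nr1d1 and 1.34-fold for Nr1d2. Between these livers 12.1% of all features differed by more than Nr1d1 and 27.9% by more than Nr1d2.

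Arntl and Clock, known targets of NR1D repression, were higher in Cyp3a-/- 1 than in Cyp3a-/- 2. These gaps were not unusual, since 19.9% of all features differed by more than Arntl between these livers and 61.5% by more than Clock. Arntl, the obligate partner of the activating pair, stood at 1.92 and 1.33 in the Cyp3a-/- livers, against 1.30 and 1.67 in the wild type livers. Cyp3a-/- 1 was the highest liver and Cyp3a-/- 2 lay near wild type 1, so the genotypes overlapped (log2 fold change 0.12 ± 0.26, limma adjusted p = 0.898). Clock, the partner of ARNTL, varied least, at 1.39 and 1.22 in the Cyp3a-/- livers and 1.22 and 1.19 in the wild type livers (log2 fold change 0.11 ± 0.18, limma adjusted p = 0.861). Cry1, a repressor that joins PER and is itself repressed by NR1D1, was well above background in Cyp3a-/- 1 and wild type 2 alone and so was not tested. Its signal was 0.0860 and 0.0258 in the Cyp3a-/- livers and 0.0346 and 0.0394 in the wild type livers. The livers without the flag have no order among themselves, and Cyp3a-/- 1 was the highest. Npas2, which can replace Clock, lacked the background flag in all 4 livers, with signals of 0.0359 and 0.0361 in the Cyp3a-/- livers and 0.0380 and 0.0209 in the wild type livers.

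**Figure D2:**
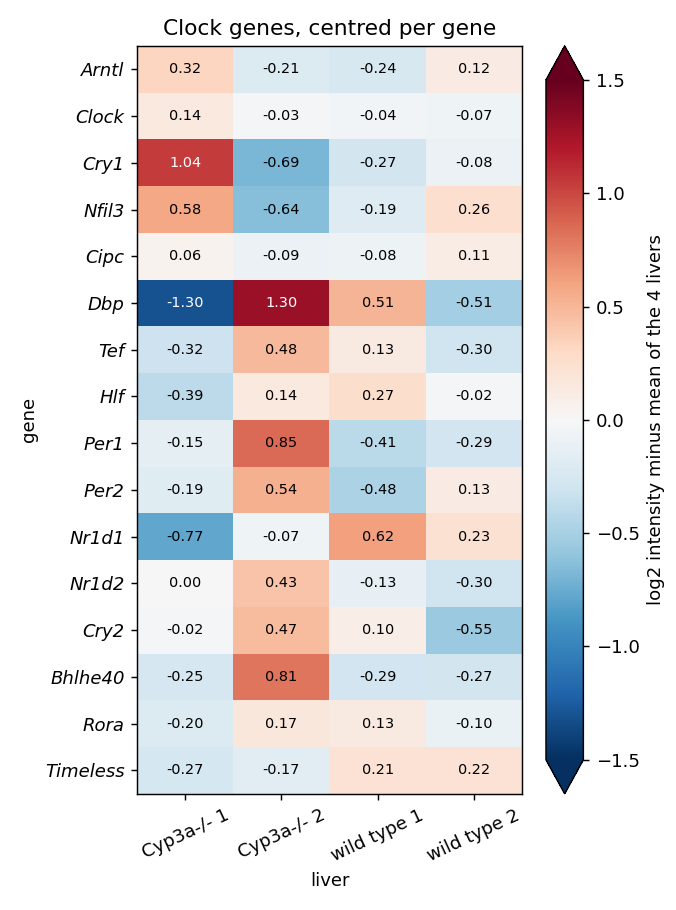
Log2 intensity of clock and related genes in each liver minus the mean of the gene's 4 livers (rows are genes, columns are livers, red is above and blue below the mean). Dbp runs from -1.30 in Cyp3a-/- 1 to 1.30 in Cyp3a-/- 2, while Arntl, Clock, Cry1 and Nfil3 are highest in Cyp3a-/- 1. Cry1 was well above background in only 2 livers.

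Set against each other, the opposite phases of the loop gave a contrast that did not order the livers by genotype. For each liver the mean deviation of Arntl and Clock from the mean of the 4 livers was taken from that of Per1, Per2, Nr1d1, Nr1d2 and Dbp. This contrast was -0.72 in Cyp3a-/- 1 and 0.73 in Cyp3a-/- 2, against 0.16 in wild type 1 and -0.17 in wild type 2 (log2). The Cyp3a-/- livers were thus the ends of the range and the wild type livers its middle, and the difference of the genotype means was 0.01. It was 0.73 without Cyp3a-/- 1 and -0.71 without Cyp3a-/- 2, and 0.18 without wild type 1 and -0.16 without wild type 2. Its sign thus depended on which liver of either genotype was kept. The contrast averages members that differed between the genotypes in opposite directions. Their log2 fold changes included 0.70 for Per1 and 0.43 for Nr1d2 but -0.84 for Nr1d1. The contrast is a description of 4 livers with no test, and the part of sampling time in it was not tested, since no hour of sampling is given.

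**Figure D3:**
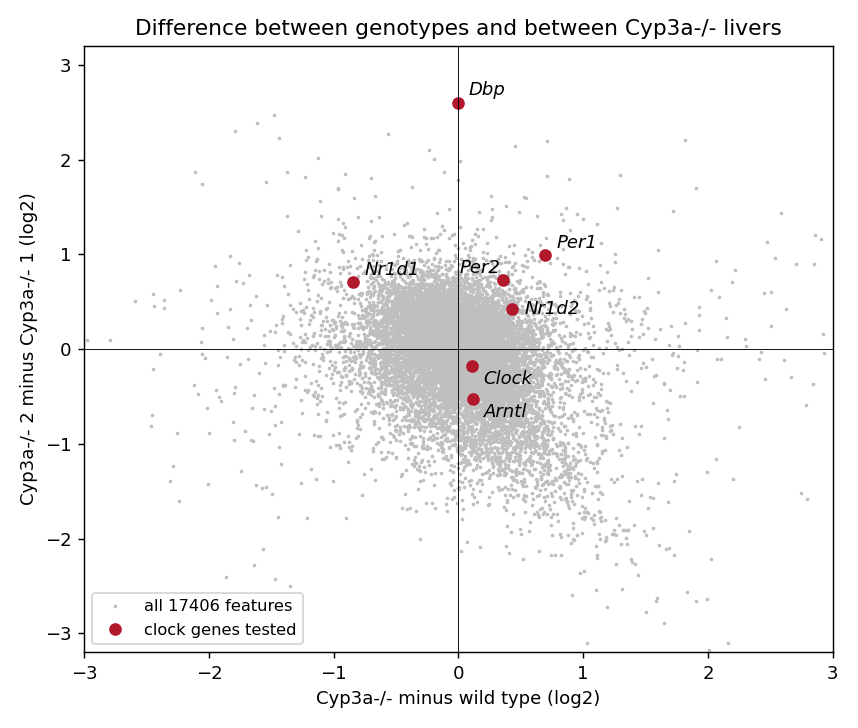
Difference between the genotypes (x axis, Cyp3a-/- minus wild type, log2) and between the Cyp3a-/- livers (y axis, liver 2 minus liver 1, log2) for all features (grey) and the 7 clock genes tested (red). Dbp lies at -0.01 on the x axis and at 2.60 on the y axis, and 37 features fall outside the plotted range.

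Among 11 other transcription factors and repressors of the clock, 8 were tested and 0 passed the adjusted threshold, beside 0.276% of all features. Their median log2 fold change was -0.03. Both wild type livers lay between the Cyp3a-/- livers for 3 of the 8, Tef, Rora and Nfil3, beside the 16.7% of all features given above. Tef and Hlf, which bind D-boxes as Dbp does, were lowest in Cyp3a-/- 1. Tef stood at 14.4 and 25.04 in the Cyp3a-/- livers, against 19.6 and 14.6 in the wild type livers, and Hlf at 1.58 and 2.29 in the Cyp3a-/- livers and 2.50 and 2.04 in the wild type livers. The order of the 4 livers for Tef was that of Dbp, with a narrower range (1.74-fold between the Cyp3a-/- livers). Nfil3, which competes at D-boxes as a repressor and is repressed by NR1D1, ran opposite, at 10.2 and 4.37 in the Cyp3a-/- livers and 5.97 and 8.15 in the wild type livers, so that Cyp3a-/- 1 exceeded Cyp3a-/- 2 by 2.34-fold. The log2 fold changes were 0.17 ± 0.32 for Tef, -0.24 ± 0.25 for Hlf and -0.06 ± 0.43 for Nfil3 (SE).

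Bhlhe40 (DEC1), an E-box repressor that is also induced by other stimuli, stood at 1.43 and 2.97 in the Cyp3a-/- livers, against 1.39 and 1.40 in the wild type livers, so that 1 liver carried its log2 fold change of 0.56 ± 0.36, which was 0.03 without Cyp3a-/- 2. Cry2, the paralog of Cry1, stood at 4.39 and 6.15 in the Cyp3a-/- livers, against 4.76 and 3.03 in the wild type livers (0.45 ± 0.30). Without wild type 2 the log2 fold change of Cry2 was 0.13, without Cyp3a-/- 2 it was 0.21, and without wild type 1 and Cyp3a-/- 1 in turn it was 0.78 and 0.70. Rora, an activator at the elements through which NR1D1 represses, had a log2 fold change of -0.03 ± 0.21. Cipc, an inhibitor of CLOCK, was at -0.03 ± 0.19. Timeless, the mammalian gene named after a fly clock gene, was at -0.43 ± 0.17 (unadjusted p = 0.0499 and adjusted p = 0.498, limma). Adjusted p values of these 8 genes lay between 0.498 and 0.970. Rorb, Bhlhe41 and Ciart lacked the background flag in all 4 livers.

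Kinases and ubiquitin ligases that set the stability of PER and CRY, with the deubiquitinase gene Usp2, also stayed short of the threshold. All 8 were tested and 0 passed, beside 0.276% of all features. Their log2 fold changes ran from -0.13 for Usp2 to 0.44 for Fbxl21, with a median of 0.07. The Fbxl21 probe lacked the background flag in wild type 1 and was kept through the Cyp3a-/- livers alone. Its 0.44 is thus no support for a higher level. The second Fbxl21 probe, flagged in all 4 livers, gave 0.30. With normexp background correction the first gave 0.096. Fbxl21 was at 0.18 without wild type 1, and Usp2 was at 0.19 without wild type 2 and 0.20 without Cyp3a-/- 1. The casein kinase genes Csnk1d and Csnk1e, named after their values were seen, were at 0.08 ± 0.17 and 0.07 ± 0.17.

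Among 13 rhythmic liver genes downstream of the clock, 12 were tested and 0 passed the adjusted threshold, beside 0.276% of all features. With median scaling 5 passed, Upp2, Por, Noct, Lpin1 and Cdkn1a. In that setting limma gave every feature the same variance and called 659 of the 17406 features. At an unadjusted p under 0.05 in the main fit, 5 of the 12 were higher, beside 4.60% of all features. Another 2 were lower, beside 5.42%, and all of these are named here after their values were seen. Upp2, a uridine phosphorylase gene, stood at 6.56 and 9.61 in the Cyp3a-/- livers, against 2.66 and 1.32 in the wild type livers (log2 fold change 2.08 ± 0.39, limma adjusted p = 0.208). Por, which passes electrons to all microsomal P450 enzymes, stood at 51.5 and 43.1 in the Cyp3a-/- livers, against 17.3 and 20.6 in the wild type livers (1.32 ± 0.20, limma adjusted p = 0.137). The livers of the genotypes did not overlap for 8 of the 12, Upp2 and Por among them, beside 42.8% of all features. Por is also a target of the drug receptors CAR and PXR. The log2 fold change of Noct, a rhythmic NADP(H) phosphatase gene, was 1.33 ± 0.46, that of Lpin1 (lipin, a phosphatidate phosphatase) 1.14 ± 0.45 and that of Cyp7a1, the rate-limiting enzyme of bile acid synthesis, 0.68 ± 0.21. Noct was at 0.65 without wild type 1 and 2.01 without wild type 2. Lpin1 was at 0.58 without Cyp3a-/- 2 and 0.72 without wild type 2. With the mean of its kept probes it was at 2.28, but the added probe lacked the background flag in both wild type livers. That probe was kept through the Cyp3a-/- livers alone, so the 2.28 is no support for a larger change. On the same scale Ppara, the fasting receptor, was at -0.59 ± 0.18 and Nr1i3, which encodes CAR and whose transcript is known to be driven by DBP and its relatives, at -0.59 ± 0.20. Nr1i3 stood at 6.16 and 7.89 in the Cyp3a-/- livers, against 10.1 and 10.9 in the wild type livers. Its order within the Cyp3a-/- pair was that of Dbp, but its order over the 4 livers was not. The part of Dbp in the Nr1i3 values was not tested. The lowest log2 fold change was that of the cell cycle inhibitor gene Cdkn1a, -1.07 ± 0.53, with 0.118 and 0.130 in the Cyp3a-/- livers and 0.147 and 0.461 in the wild type livers. It was -0.24 without wild type 2.

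Signals that reach the Per genes from outside the loop were read from the same arrays. Of 6 glucocorticoid targets 0 passed, beside 0.276% of all features. Their log2 fold changes ran from -0.95 ± 0.59 for the phosphatase gene Dusp1 to 0.73 ± 0.29 for the kinase gene Sgk1. Leaving out wild type 2 put Dusp1 at -0.037, leaving out wild type 1 put it at -1.86, and Sgk1 was at 0.41 without Cyp3a-/- 1. At an unadjusted p under 0.05 the transcription factor gene Zbtb16 was lower, at -0.47 ± 0.18 (limma adjusted p = 0.485). Of 7 immediate early genes tested 0 passed, beside the same 0.276%. Wild type 2 was the highest liver for 6 of the 7, beside 24.1% of all features, and there the median member lay 0.85 above the mean of the 4 livers, against 0.01 and -0.12 in the Cyp3a-/- livers and -0.35 in wild type 1. Among them Nr4a1, a nuclear receptor gene, stood at 1.40 and 1.96 in the Cyp3a-/- livers, against 0.427 and 2.56 in the wild type livers, and the growth response gene Egr1 at 0.580 and 0.526 in the Cyp3a-/- livers and 1.23 and 2.13 in the wild type livers (log2 fold change -1.55 ± 0.30, limma adjusted p = 0.218). With median scaling, where 659 features were called, Egr1 passed, at -1.52. Fosb, the exception, was highest in Cyp3a-/- 1 (log2 fold change 0.59 ± 0.21, limma adjusted p = 0.461). From high to low, Per1 ran Cyp3a-/- 2, Cyp3a-/- 1, wild type 2 and wild type 1. Per2 ran Cyp3a-/- 2, wild type 2, Cyp3a-/- 1 and wild type 1. Of 7 genes that follow body temperature 0 passed, beside the same 0.276%. Their log2 fold changes ran from 0.01 for the heat shock gene Dnajb1 to 0.25 for the cold-induced gene Rbm3. Dnajb1 was at -0.027 with normexp and -0.044 with quantile normalization. Rbm3 was at 0.035 without wild type 2 and without Cyp3a-/- 2, and at 0.46 without either other liver. Rbm3 ranked the livers at 3.31 and 4.44 in the Cyp3a-/- livers and 3.74 and 2.79 in the wild type livers. The part of these signals in the clock values was not tested.

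Of the markers of other liver cells 0 were called, beside 0.276% of all features. They are given as sums over probes, in which the brightest probes weigh most. The summed relative intensity of the 6 macrophage markers was 44.6 and 49.1 in the Cyp3a-/- livers and 53.1 and 51.7 in the wild type livers. The 6 stellate cell markers summed to 34.8 and 37.4 in the Cyp3a-/- livers and 41.1 and 37.8 in the wild type livers. All 6 had a log2 fold change below 0, beside 8452 of 17406 features. All 6 were also lowest in Cyp3a-/- 1, beside 5660 of those features. The 5 endothelial markers summed to 32.4 and 29.6 in the Cyp3a-/- livers and 36.4 and 27.7 in the wild type livers. The erythroid markers tested, 3 of 4, summed to 46.5 and 74.98 in the Cyp3a-/- livers and 91.6 and 107 in the wild type livers, and 2 of these 3 were lower at an unadjusted p under 0.05, beside 5.42% of all features. Of 4 lymphocyte markers tested 2 were lower at that threshold, beside the same 5.42%. The median log2 fold change of the 4 was -0.43. These 4 summed to 1.58 and 1.39 in the Cyp3a-/- livers and 1.79 and 1.28 in the wild type livers. Cholangiocyte markers, 3 of 4 tested, summed to 0.522 and 0.443 in the Cyp3a-/- livers and 0.355 and 0.599 in the wild type livers, and neutrophil markers, 2 of 3 tested, to 0.990 and 0.941 in the Cyp3a-/- livers and 1.37 and 0.841 in the wild type livers. Their part in the Nr1d1 and Per1 values was not tested.

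Genes whose pattern over the 4 livers came nearest to that of Dbp were sought among 13094 named genes by the root mean square difference of centred log2 values, over 4 livers, as a description. The nearest were Mvd (0.43), Msmo1 (0.47), Srrm4 (0.49), Pstpip2 (0.49) and Primpol (0.50). Each was lower in Cyp3a-/- 1 than in Cyp3a-/- 2, which follows from the choice by nearness to Dbp. Srrm4 was highest in wild type 1, at 0.159 against 0.133 in Cyp3a-/- 2. Mvd and Msmo1 are enzymes of cholesterol synthesis, and Mvd stood at 0.474 and 1.73 in the Cyp3a-/- livers and 0.995 and 0.968 in the wild type livers. For Arntl, whose range was 0.56, the nearest were Zbtb1 (0.01), Unc93a2 (0.02), Fxyd2 (0.02), Ccdc115 (0.03) and Naip5 (0.03).

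**Figure D4:**
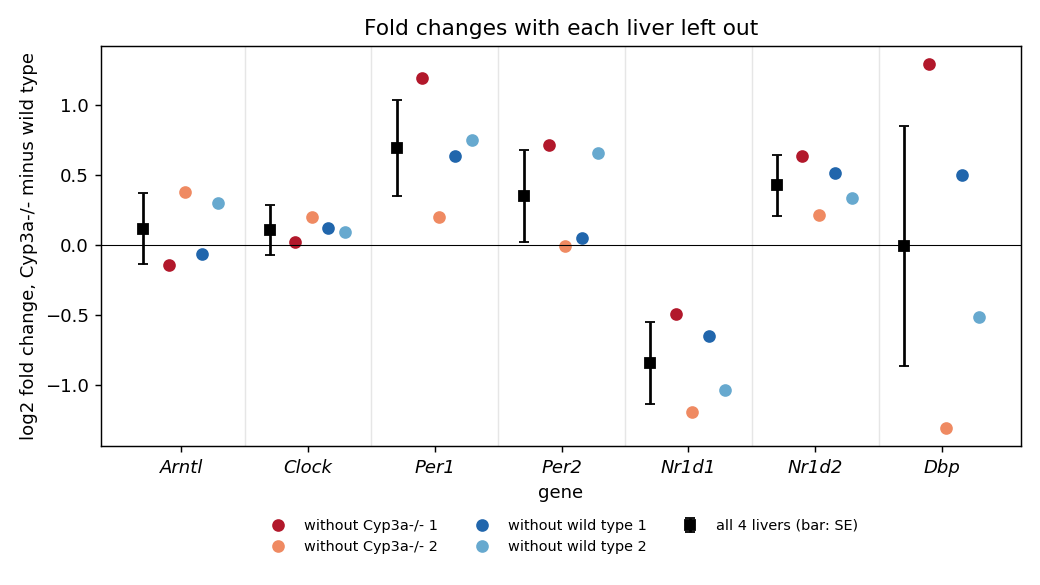
Log2 fold change (Cyp3a-/- minus wild type) of the 7 clock genes tested with all 4 livers (black, bars are SE) and with 1 liver left out (coloured points). Dbp moves between -1.31 and 1.30, and Nr1d1 stays between -1.20 and -0.49.

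The clock values rested strongly on single livers. Dbp stood at 1.30 without Cyp3a-/- 1 and at -1.31 without Cyp3a-/- 2. Nr1d1 lay between -1.20 and -0.49 over the 4 such fits, with limma adjusted p from 0.0748 to 0.903, and Nr1d2 between 0.22 and 0.64. None of the 7 members passed in any of these fits (0 called), and the lone liver of a genotype was there assumed to vary like the pair of the other. P-values rest on 2 livers per genotype, and a miss of the threshold does not show equal levels.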

How the data were processed

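The authors deposited 1 scanner table per array. Per the submitters' processing notes, Agilent Feature Extraction 11.5.1.1 made it. Its processed intensity had the background subtracted, with no scaling across arrays, per the file headers. Other deposited columns hold flags of 0 or 1 for background, saturation and outliers. A deposited table of log2 values does not state its scale or centring. Compared with the scanner intensities (r of 1.00 on each array) it matched 75th percentile scaling followed by subtraction of the probe's median over arrays. Its column medians were -0.02 and 0.02 for the Cyp3a-/- arrays and 0.06 and -0.07 for the wild type arrays.

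Control spots and outlying spots (113 to 148 per array) were removed. The 75th percentile of each array was subtracted from its log2 signals. Probes needed the background flag in both livers of either genotype (21508 probes). RefSeq accessions (GRCm38.p6) gave 28025 probes 1 symbol, 11404 none and 0 several. The brightest such probe stood for its gene. The resulting 17406 features went through limma 3.58.1 under R 4.3.3 (lmFit and eBayes, 2-sided, Benjamini-Hochberg, threshold 0.05), a fit also tested on simulated data. Alternatives were another background correction, scaling, filter, probe rule, the authors' table, blocks, and fits without 1 liver.

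The members and lists were chosen with earlier results of these data known. The text names all 10 members, the tested clock transcription factors, and the highest and lowest gene of each other list but those of cell markers, which are given as sums. Motifs, and other genes so marked, were chosen after values were seen. One gene of the wider clock list is not reported here and is left out of its counts. Precision is limited by having 2 arrays a genotype. No per-sample column was left unused (0).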

Additional observations from a re-analysis of the deposited data

How the results depend on the processing

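No setting called any of the 7 clock genes tested (0 of 91 values), and 83 of these kept the sign of the main value. The exceptions in sign outside the fits without a liver were all of Dbp, whose log2 fold change of -0.01 became 0.012 with normexp, 0.025 with median scaling and 0.066 with the mean of its probes. Dnajb1 turned to -0.027 with normexp and -0.044 with quantile normalization. Over the fits that left out 1 liver, the log2 fold changes ranged from -0.15 to 0.38 for Arntl, -1.31 to 1.30 for Dbp, -0.0091 to 0.72 for Per2, -0.22 to 0.15 for Rora, -0.51 to 0.022 for Hlf, -0.23 to 0.57 for Tef, -0.68 to 0.55 for Nfil3, -0.13 to 0.066 for Cipc, -0.46 to 0.20 for Usp2, -0.63 to 1.95 for Nr4a1 and -0.39 to 0.41 for Dnajb1. The median over the members tested ranged from 0.13 to 0.64 and the phase contrast, 0.01 with all livers and -0.063 with normexp, from -0.71 to 0.73. Of the 28 wider clock and output genes tested, 0 to 1 were called with a liver left out; the 1 was Por, at 1.45 without Cyp3a-/- 2. Median scaling called 5 of them, Upp2, Por, Noct, Lpin1 and Cdkn1a, as well as the immediate early gene Egr1, and 659 features in all, because there limma gave every feature the same variance (SE 0.32). The count over all features was 48 as reported, 13 without a filter on dim probes, 9 with all 4 arrays required, and 7 (without wild type 2) to 506 (without Cyp3a-/- 2) with 1 liver left out; the cause was not tested. The difference between the Cyp3a-/- livers, added after seeing the data, was 2.35 (normexp) to 2.78 for Dbp and -0.54 to -0.35 for Arntl, the ends at 2.78 and -0.35 from median scaling. With slide as a random block (correlation 0.355, estimated from the within-genotype gaps) 0 members were called. With the replicate number as a block 0 members, 0 wider genes and 58 features were called; same-numbered livers deviated with a correlation of -0.10, and the labels do not say that a number pairs animals. The faintest members, Npas2, Per3 and Cry1, are limited by signal over background. Per2, the faintest member tested, was at 0.12 with normexp against 0.35 in the main fit.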
